A study of Mus musculus with 18 samples.

Results

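The comparison placed 2 short hairpins against Gstt1 side by side in 2 mouse pancreatic ductal adenocarcinoma (PDAC) lines, G45-2 and 6-3, both grown from spontaneous liver metastases. Its members, chosen by the cell line and hairpin labels, were 2 Gstt1 shRNA 2 libraries, 2 Gstt1 shRNA 1 libraries and the 2 NT control libraries of the same lines, which made 6 of the 18 libraries of the series. All 6 carry 1 genotype label, SIRT6F/Fp48+/Tp53F/+KrasL/+, so the controls share these alleles with the knockdowns. Lentivirus delivered shRNA 2, shRNA 1 or the NT hairpin, puromycin selection lasted 48 h, and RNA was taken after the cells had been split once more. Each line supplied 1 library per hairpin and 1 NT library, so within a line an effect of the hairpin and a difference between infected cultures cannot be told apart. Nothing in the labels says that libraries come from separate cultures beyond line and hairpin, and p-values therefore reflect no more than how these libraries vary, possibly for technical reasons.

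A short hairpin RNA is cut by Dicer into a small RNA that guides an Argonaute protein to matching transcripts, which are then degraded. Hairpins of different sequence against the same gene share that gene as a target but differ in their other matches, and they often leave different amounts of the target behind. Gstt1 encodes a theta-class glutathione S-transferase, a cytosolic enzyme that joins glutathione to small electrophilic molecules, and Gstt2, Gstt3 and Gstt4 encode close relatives. The comparison asked what differs between a culture that kept part of its Gstt1 transcript and a culture of the same line that lost nearly all of it, with NT as the undepleted level. The sequences of the hairpins themselves were not analysed here.

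RNA was measured as CPM, the reads of a gene scaled to a fixed library total, for 16383 genes, of which 12377 reached 1 CPM in at least 2 of the 6 libraries and were tested. The 6 libraries held 12015808 to 18799837 reads, so that 3 reads stood at 0.160 to 0.250 CPM. The shallowest, shRNA 2 of 6-3, had 10962 genes at 1 CPM or more and a median of 13.9 CPM, against 11942 genes and 18 CPM for shRNA 1 of 6-3. In G45-2 the counts were 11698 genes with shRNA 2 and 11544 with shRNA 1. The median difference between the hairpins over all genes was -0.13 on the log2(CPM + 1) scale in 6-3 and 0.02 in G45-2, and median-ratio rescaling brought the 6-3 value to -0.01. Within each line both hairpin libraries carry the same library code, while the NT library of 6-3 carries another. Keratins of ductal tumour cells were abundant in all 6 libraries, Krt18 lying between 1995 and 4558 CPM.

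Before any hairpin is compared, the NT library of G45-2 has to be described, because it stood far from both hairpin libraries of its line. The keratin gene Krt7 was at 2.98 CPM with shRNA 2 and 6.49 CPM with shRNA 1, against 1984 CPM in NT of G45-2. The gastric-type claudin gene Cldn18 was at 0.31 CPM with shRNA 2 and 0.32 CPM with shRNA 1, against 315 CPM in NT. The Y-linked gene Kdm5d was at 0.06 CPM with shRNA 2 (1 read) and had no reads with shRNA 1, against 29.8 CPM in NT. The other Y-linked transcripts, Ddx3y, Eif2s3y and Uty, were present in all 6 libraries at 26.9 to 153.5 CPM. In 6-3 Cldn18 was at 517, 421 and 481 CPM with shRNA 2, shRNA 1 and NT, and Krt7 at 21.1, 129.7 and 1422 CPM. Counting genes at 20 CPM or more in 1 library and under 1 CPM in the other, a description chosen after the data were seen, gave 4 genes between shRNA 2 and shRNA 1 of G45-2, 42 between shRNA 2 and NT, and 59 between shRNA 1 and NT. In 6-3 it gave 30, 60 and 22 genes in that order, and all 30 between the hairpins were the higher in shRNA 1.

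**Figure D1:**
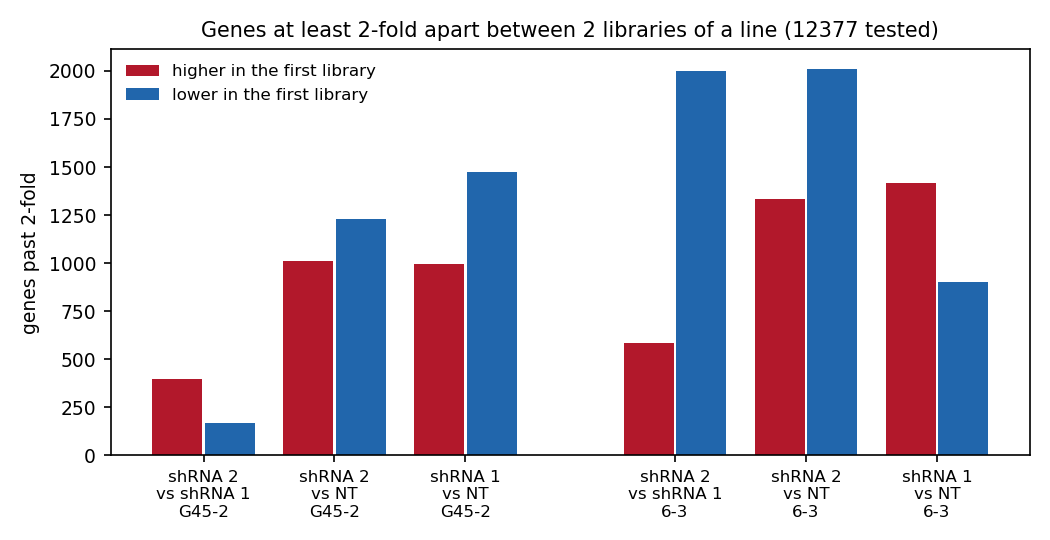
Number of genes at least 2-fold apart on the log2(CPM + 1) scale for each pair of libraries within a line, with the first library named on the axis as the numerator. In G45-2 the hairpin pair differs by 2-fold at 567 genes, while in 6-3 it differs at 2585, of which 2001 are lower with shRNA 2.

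Gstt1 itself was left at different levels by the hairpins in both lines. In G45-2 it was at 5.15 CPM with shRNA 2 and 23.9 CPM with shRNA 1, against 43.8 CPM in NT, which is 11.8% and 54.5% of NT. Because the G45-2 NT library also lacks the low Krt7, Cldn18 and Kdm5d levels of both hairpin libraries, a difference in cell population and the depletion cannot be told apart in its percentages, and the same holds for other values against this NT. In 6-3 it was at 0.250 CPM with shRNA 2 (3 reads) and 19.2 CPM with shRNA 1 (241 reads), against 25.4 CPM in NT (373 reads). The 3 reads of 6-3 shRNA 2 are 1.30% of the shRNA 1 level (exact 95% counting interval 0.267% to 3.86%) and 0.982% of the NT level (0.202% to 2.89%), intervals that cover counting error only. shRNA 1 of 6-3 stood at 75.4% of NT (exact 95% counting interval 63.8% to 88.8%). NT of 6-3 was also far from its hairpin libraries, with 27.05% of genes 2-fold apart from shRNA 2 and 18.74% from shRNA 1. In G45-2 these shares were 18.08% and 19.95%. NT of 6-3 carries another library code as well, so in its percentages too depletion cannot be told apart from other differences between the libraries. The levels were in the order shRNA 2, shRNA 1, NT in both lines. The difference between shRNA 2 and shRNA 1 was -2.02 in G45-2 and -4.01 in 6-3 on the log2(CPM + 1) scale, on average -3.01 (SE 0.59, n = 2 lines), lower in 2 of 2 lines. It did not pass over all genes in limma (unadjusted p = 0.00349, adjusted p = 0.9998), and an exact sign-flip permutation test over 2 lines cannot go below 0.5.

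Gstt3, the paralog of Gstt1 closest to it in sequence among those examined, ordered the libraries in the same way. It was at 4.78 CPM with shRNA 2 and 8.14 CPM with shRNA 1, against 43.9 CPM in NT of G45-2, and at 0.17 CPM (2 reads) and 3.50 CPM, against 7.43 CPM in NT of 6-3. Its mean difference between the hairpins was -1.30 (SE 0.53, limma adjusted p = 0.9998). Gstt2 was at 1.06 CPM with either hairpin in G45-2, against 15.0 CPM in NT, and at 0.08 CPM (1 read) with shRNA 2 and 3.10 CPM with shRNA 1, against 0.75 CPM in NT of 6-3. Gstt4 did not pass the filter on low values, lying at 0.21 CPM or less in all 6 libraries. Of the 700 stretches of 21 bases in the coding sequence of Gstt1 (720 bases, GENCODE M21, gene on chromosome 10), 27 also occur in the Gstt3 transcript and 0 in those of Gstt2 or Gstt4. The longest run shared with Gstt3 is 35 bases, at positions 587 to 621 of the Gstt1 transcript and 955 to 989 of the Gstt3 transcript, within the coding sequence of both. These sequences are shown because reads or a hairpin matching the capital letters could not tell the genes apart:
Gstt1: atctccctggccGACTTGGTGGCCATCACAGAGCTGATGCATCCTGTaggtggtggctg
Gstt3: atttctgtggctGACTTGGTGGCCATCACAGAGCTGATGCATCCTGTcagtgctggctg
The capitals mark the shared run and the small letters the bases beside it, in transcript direction. The sources do not say which gene received the reads of such runs, so Gstt1 and Gstt3 may exchange some reads in this table, and whether a hairpin matches the run was not tested.

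**Figure D2:**
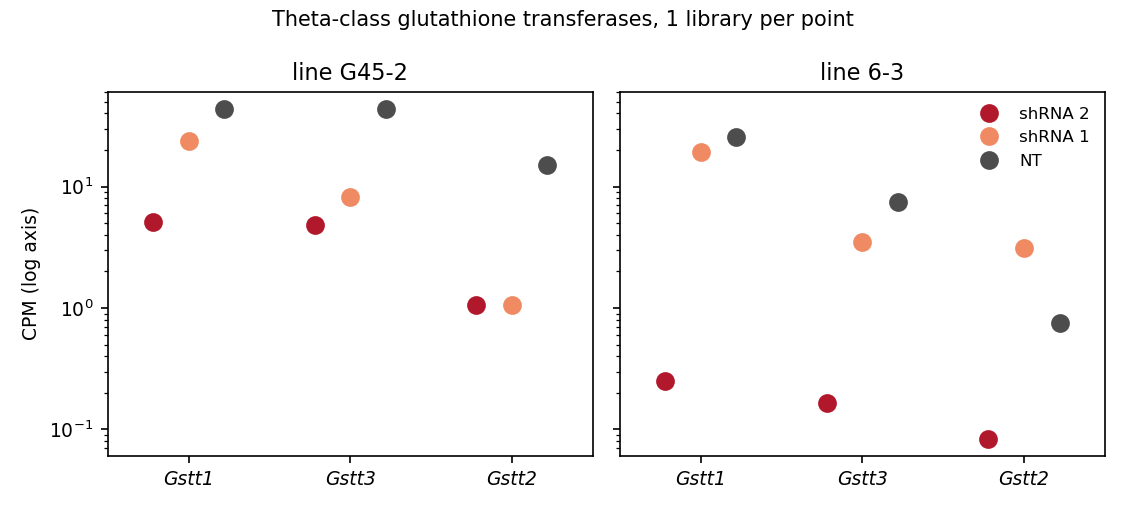
CPM of Gstt1, Gstt3 and Gstt2 on a log axis in the libraries of G45-2 (left) and 6-3 (right), 1 point per library. Gstt1 and Gstt3 lie lowest with shRNA 2 and highest in NT in both lines, while Gstt2 has shRNA 1 above NT in 6-3.

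Across all genes, no transcript passed the test between shRNA 2 and shRNA 1. In limma 0 of 12377 genes had an adjusted p under 0.05 (0.0%), with 134 at an unadjusted p under 0.05, and edgeR on the reads recovered from the CPM values called 0, with 128. Of the 134 genes, 20.9% were higher with shRNA 2, and of the 157 found after quantile normalization 33.1% were. This share rests on single libraries: it was 76.9% of 108 genes without shRNA 1 of 6-3, 60.3% of 73 without shRNA 2 of 6-3, 12.5% of 457 without shRNA 1 of G45-2 and 30.7% of 1150 without shRNA 2 of G45-2. Against NT, the limma counts were 0 (0.0%) for shRNA 2, with 1357 genes at an unadjusted p under 0.05, and 0 (0.0%) for shRNA 1, with 1129, and edgeR called 0 in each, with 1236 and 1008. These contrasts share the NT libraries, so their results are not independent of each other. With 2 residual degrees of freedom the fit has little precision, and a p that misses the threshold does not show that the cultures are alike.

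The difference between the hairpins was much wider in 6-3 than in G45-2. Its standard deviation over genes was 0.92 in 6-3 and 0.46 in G45-2, against 1.08 to 1.21 between the lines at the same treatment. In G45-2, 397 genes (3.21%) were at least 2-fold higher with shRNA 2 and 170 (1.37%) at least 2-fold lower. In 6-3, 584 genes (4.72%) were higher and 2001 (16.2%) lower. There is 1 library per hairpin and line, so these counts have no test. Across the 12377 genes the differences of the lines, which share no library, were almost unrelated (Pearson r = -0.07, Spearman rho = -0.07, as a description, since genes are not independent).

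Applying the 2-fold limit in both lines left 274 genes, and most of them went in opposite directions. With shRNA 2, more genes were higher than lower in G45-2 (397 and 170) and fewer in 6-3 (584 and 2001). Such totals alone give more opposite than equal directions in unrelated lines, so the split is not read as a result about these genes. With shRNA 2, 30 genes (0.242%) were higher in both lines and 79 (0.638%) lower in both, while 153 (1.24%) were higher in G45-2 and lower in 6-3 and 12 (0.097%) the reverse. The 109 genes of 1 direction were 39.8% of the 274, 19.2% of the genes past 2-fold in G45-2 and 4.22% of those in 6-3. The lists of genes that follow were picked by these values, so that they describe the 4 libraries and carry no test. Among genes of 1 direction the members nearest the limit were Plin4 and Mei4, whose smaller difference was 1.01 for each, and just outside it lay Tubb4a (0.995) and Abcc3 (0.989).

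**Figure D3:**
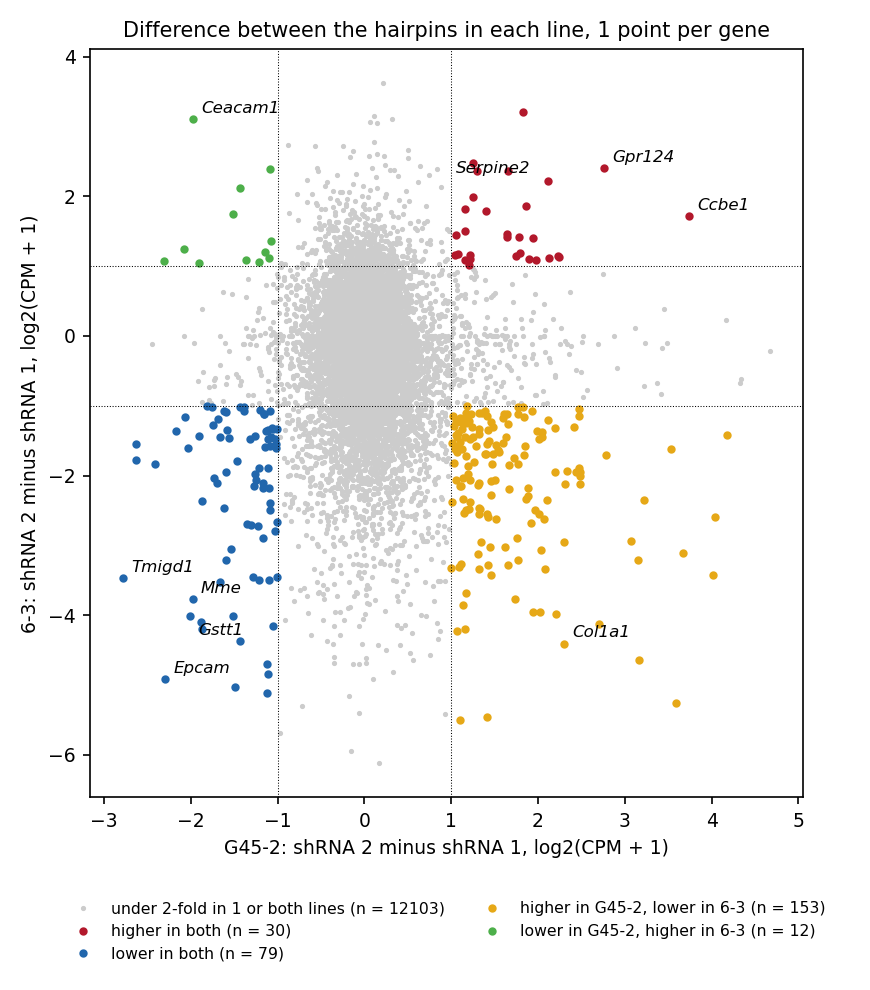
Difference between shRNA 2 and shRNA 1 on the log2(CPM + 1) scale in G45-2 (horizontal) and 6-3 (vertical), 1 point per gene, with dotted lines at 2-fold. Coloured points pass 2-fold in both lines: 30 higher in both, 79 lower in both, 153 higher in G45-2 and lower in 6-3, and 12 the reverse.

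Among the 79 genes lower with shRNA 2 in both lines, the ones named by the rule are described by what each is known to do. Epithelial cells of the gut carry a brush border, a carpet of microvilli built on villin and loaded with digestive enzymes, and PDAC cells of the classical kind express part of this programme. Epcam, an epithelial adhesion molecule, was at 3.91 CPM with shRNA 2 and 23.1 CPM with shRNA 1 in G45-2, and at 0.08 CPM (1 read) and 31.8 CPM in 6-3. The 1 read is 0.262% of the shRNA 1 level (exact 95% counting interval 0.00661% to 1.47%). In NT Epcam was at 263.6 CPM in G45-2 and 5.86 CPM in 6-3, so the NT level lay above both hairpins in G45-2 and between them in 6-3.

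Vil1, which encodes villin, the actin bundler of microvilli, was at 6.39 CPM with shRNA 2, against 26.0 CPM with shRNA 1 and 23.1 CPM in NT of G45-2, and at 8.32 CPM, against 46.8 and 73.3 CPM, in 6-3. In both lines the shRNA 2 library was the low one and the others were within 2-fold of each other. Tmigd1, an adhesion protein of the intestinal and renal epithelium, was at 6.89 CPM with shRNA 2, against 53.4 CPM with shRNA 1 and 41.0 CPM in NT of G45-2. In 6-3 it was at 0.08 CPM (1 read) with shRNA 2, against 11.0 CPM with shRNA 1 and 26.9 CPM in NT. The 1 read is 0.759% of the shRNA 1 level (exact 95% counting interval 0.0191% to 4.30%). Marveld3, a tight junction protein, had 3.6 CPM with shRNA 2, against 14.0 CPM with shRNA 1 and 12.3 CPM in NT of G45-2, and 0.83, 6.91 and 15.1 CPM in 6-3. Marveld2 and Tjp3, also tight junction genes, and Spint1, an inhibitor of epithelial serine proteases, were on the same side in both lines.

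For Mme, Car2, Ace and Cdhr5, also lower with shRNA 2 in both lines, the place of NT varied. Mme, the membrane peptidase neprilysin, was at 16.7 CPM with shRNA 2 and 68.9 CPM with shRNA 1 in G45-2, against 2.07 CPM in NT, and at 3.75 and 63.8 CPM in 6-3, against 2.52 CPM in NT. Its shRNA 1 libraries were the high ones of each line, and shRNA 2 lay between them and NT. Car2, a carbonic anhydrase, was at 5.59 and 19.9 CPM with shRNA 2 and shRNA 1, against 142 CPM in NT of G45-2, but at 15.7 and 189.7 CPM, against 77.5 CPM in NT of 6-3. Ace, a peptidase of the brush border, was at 5.52 and 18.7 CPM with shRNA 2 and shRNA 1 of G45-2, against 37.7 CPM in NT, and at 0.08 CPM (1 read) and 3.18 CPM in 6-3, against 18.2 CPM in NT. Cdhr5, a cadherin that links the tips of microvilli, was at 48.4 CPM with shRNA 2 and 104 CPM with shRNA 1 in G45-2, and had no reads with shRNA 2 and 4.61 CPM with shRNA 1 in 6-3, where 3 reads with shRNA 2 would be 0.250 CPM. NT held 24.1 and 5.45 CPM of Cdhr5 in these lines. Ace and Cdhr5 were named after their values were seen, as were Krt7, Krt18, Krt20, Cldn6, Cldn18, Kdm5d, Ddx3y, Cdh1, Marveld2, Spint1, Snai2, Vim, H2-K1, Col3a1, Apob and Cd14.

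Other genes low with shRNA 2 in both lines encode metabolic enzymes. Fbp2, a fructose bisphosphatase, was at 1.37 CPM with shRNA 2, against 11.6 CPM with shRNA 1 and 5.59 CPM in NT of G45-2, and at 1.83, 9.06 and 7.77 CPM in 6-3. Ces2g, a carboxylesterase, was at 1.49, 7.29 and 4.03 CPM with shRNA 2, shRNA 1 and NT of G45-2, and at 8.74, 38.7 and 36.7 CPM in 6-3. In both genes and both lines NT lay between the hairpins, and nearer shRNA 1 than shRNA 2 on the log2(CPM + 1) scale. Mgst1, a membrane-bound glutathione transferase, was at 132 and 281 CPM with shRNA 2 and shRNA 1 of G45-2 and 12.8 and 40.4 CPM in 6-3. NT held 124.7 CPM of Mgst1 in G45-2 and 229.9 CPM in 6-3. Of 34 glutathione metabolism genes tested, Mgst1 was the only 1 lower in both lines, with 0 higher, against 0.638% and 0.242% of all genes. The medians of the 34 were 0.001 in G45-2 and -0.80 in 6-3. In 6-3, 12 of them were at least 2-fold lower with shRNA 2 and 2 higher, against 16.2% and 4.72% of all genes. Ephx1, the microsomal epoxide hydrolase and an NRF2 target, was at 58.8 and 128 CPM with shRNA 2 and shRNA 1 of G45-2, and at 4.41 and 154.6 CPM in 6-3, with NT at 20.2 and 104 CPM.

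The 12 genes of the rule included Prr15l, Sel1l3 and Ppp1r1b as well. Prr15l was at 0.56 CPM with shRNA 2 and 4.73 CPM with shRNA 1 in G45-2, against 3.74 CPM in NT, and at 1.5 and 41.8 CPM in 6-3, against 23.4 CPM in NT. Sel1l3 was at 16.5 and 62.8 CPM with shRNA 2 and shRNA 1 of G45-2 and at 0.92 and 34.0 CPM in 6-3, with NT at 7.95 and 57.1 CPM. Ppp1r1b, the phosphatase inhibitor DARPP-32, was at 7.20 and 49.8 CPM with shRNA 2 and shRNA 1 of G45-2, against 7.43 CPM in NT. In 6-3 it was at 0.08 CPM (1 read) with shRNA 2, against 2.70 CPM with shRNA 1 and 2.18 CPM in NT, the read being 3.08% of the shRNA 1 level (exact 95% counting interval 0.0758% to 18.4%).

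Of the 30 genes higher with shRNA 2 in both lines, those named by the rule have varied roles. Myh10, the heavy chain of non-muscle myosin IIB, was at 67.1 CPM with shRNA 2 and 17.8 CPM with shRNA 1 in G45-2, against 142 CPM in NT, and at 237 and 64.5 CPM in 6-3, against 53.8 CPM in NT. Flnc, an actin cross-linking filamin, was at 79.1 and 24.6 CPM with shRNA 2 and shRNA 1 of G45-2, against 96.0 CPM in NT, and at 573 and 213 CPM in 6-3, against 162.6 CPM in NT. In both genes shRNA 2 lay nearer to NT than shRNA 1 did in G45-2, while in 6-3 it was shRNA 1 that lay near NT.

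Serpine2, a secreted inhibitor of thrombin and plasminogen activators, was at 111.7 CPM with shRNA 2, against 25.1 CPM with shRNA 1 and 34.2 CPM in NT of G45-2, and at 41.7, 8.19 and 2.25 CPM in 6-3. The shRNA 2 library was the highest of the 3 in both lines. Gpr124, an adhesion receptor of Wnt7 signalling in brain vessels, was at 18.4, 1.86 and 7.60 CPM with shRNA 2, shRNA 1 and NT of G45-2, and at 36.4, 6.04 and 13.0 CPM in 6-3. Here too shRNA 2 was the highest library in both lines. Acan, the cartilage proteoglycan aggrecan, was at 4.59 and 1.28 CPM with shRNA 2 and shRNA 1 of G45-2, against 5.30 CPM in NT, and at 122.5 and 23 CPM in 6-3, against 103.5 CPM in NT. For this gene shRNA 1 was the library that stood apart in each line. Pgf, placental growth factor, was likewise lowest with shRNA 1, with 5.46 and 1.06 CPM for shRNA 2 and shRNA 1 of G45-2, against 12.4 CPM in NT, and 46.4 and 16.1 CPM in 6-3, against 67.3 CPM in NT.

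Ccbe1, a secreted activator of VEGF-C, was at 18.7 and 0.48 CPM with shRNA 2 and shRNA 1 of G45-2, against 60.0 CPM in NT, and at 87.6 and 26.0 CPM in 6-3, against 14.0 CPM in NT. Igf2bp1, an oncofetal RNA-binding protein, was at 5.84 and 1.17 CPM with shRNA 2 and shRNA 1 of G45-2, against 165 CPM in NT, and at 52.0 and 9.30 CPM in 6-3, against 9.95 CPM in NT. Kctd15, Klk10, a secreted serine protease, and 1700012B09Rik were also named by the rule, with differences of 1.25 to 1.94 in G45-2 and 1.40 to 3.22 in 6-3. In 70% of the 30 genes shRNA 2 lay between NT and shRNA 1 in G45-2 (21 of 30, against 46.9% of all genes), and in 6-3 in 16.7% (5 of 30, against 26.7% of all genes).

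**Figure D4:**
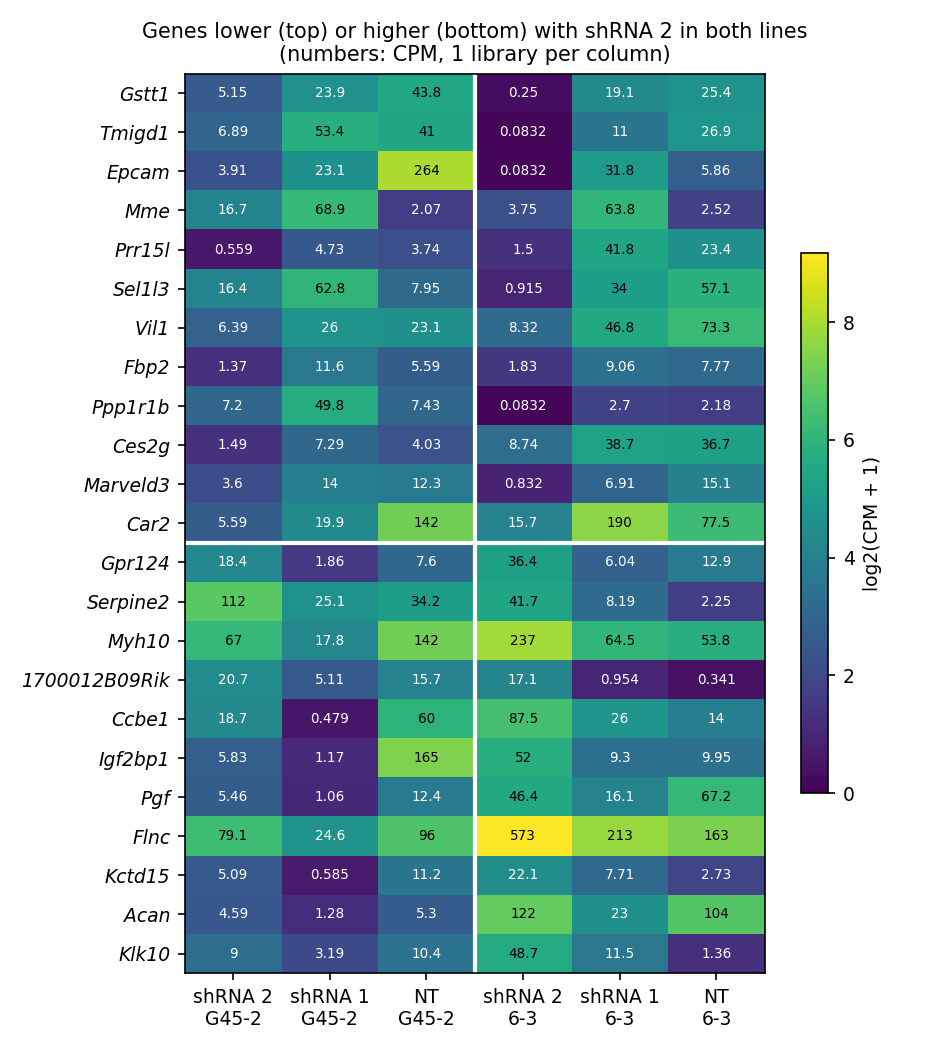
log2(CPM + 1) as colour and CPM as figures for the 12 genes lower (above the white line) and 11 of the 12 higher (below it) with shRNA 2 in both lines, chosen by the size of the smaller of the line differences, with columns shRNA 2, shRNA 1 and NT of G45-2 and then of 6-3. Within each line the shRNA 2 column is darker than the shRNA 1 column in the upper rows and lighter in the lower rows, while the NT column follows neither throughout.

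Lists of pathway genes were described by their counts and medians. Of 33 epithelial junction and keratin genes tested, 6 were lower with shRNA 2 in both lines (Epcam, Tjp3, Marveld2, Marveld3, Krt20 and Spint1) and 1 was higher (Cldn6, a claudin of embryonic epithelium), against 0.638% and 0.242% of all genes. Their median difference was -0.46 in G45-2 and -0.73 in 6-3, against 0.02 and -0.13 over all genes. Cdh1, the epithelial cadherin, was at 24.4 and 40.5 CPM with shRNA 2 and shRNA 1 of G45-2, against 175 CPM in NT, and at 869 and 871 CPM in 6-3, against 1233 CPM in NT. Cldn6 was at 107.6 and 44.6 CPM with shRNA 2 and shRNA 1 of G45-2, against 172 CPM in NT, and at 691 and 123.7 CPM in 6-3, against 555.7 CPM in NT.

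Of 28 mesenchymal genes tested, 0 were past 2-fold in the same direction in both lines, against 0.638% lower and 0.242% higher of all genes. The medians were 0.42 in G45-2 and -0.09 in 6-3, against 0.02 and -0.13 over all genes. In G45-2, 21 of the 28 were higher with shRNA 2 by any amount (6700 of all 12377 genes), 8 of them past 2-fold (3.21% of all genes). In 6-3, 11 were higher (5046 of all 12377 genes) and 5 were at least 2-fold lower (16.2% of all genes). Snai1 and Snai2 encode factors that repress epithelial genes. Snai1 was at 10.5 and 2.5 CPM with shRNA 2 and shRNA 1 of G45-2, against 18.3 CPM in NT, and at 1.42 and 0.72 CPM in 6-3, against 1.64 CPM in NT. The 6-3 values rest on 17 and 9 reads, and the ratio of shRNA 2 to shRNA 1 there has an exact 95% counting interval of 83.4% to 503.6%, which includes no difference. Snai2 was at 12.9 and 4.95 CPM with shRNA 2 and shRNA 1 of G45-2, against 18.2 CPM in NT, and at 32.8 and 17.9 CPM in 6-3, against 12.9 CPM in NT. Vim, the mesenchymal intermediate filament, differed little, with 2009 and 1704 CPM for shRNA 2 and shRNA 1 of G45-2 and 1764 and 1410 CPM in 6-3, against 1264 and 1722 CPM in NT.

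**Figure D5:**
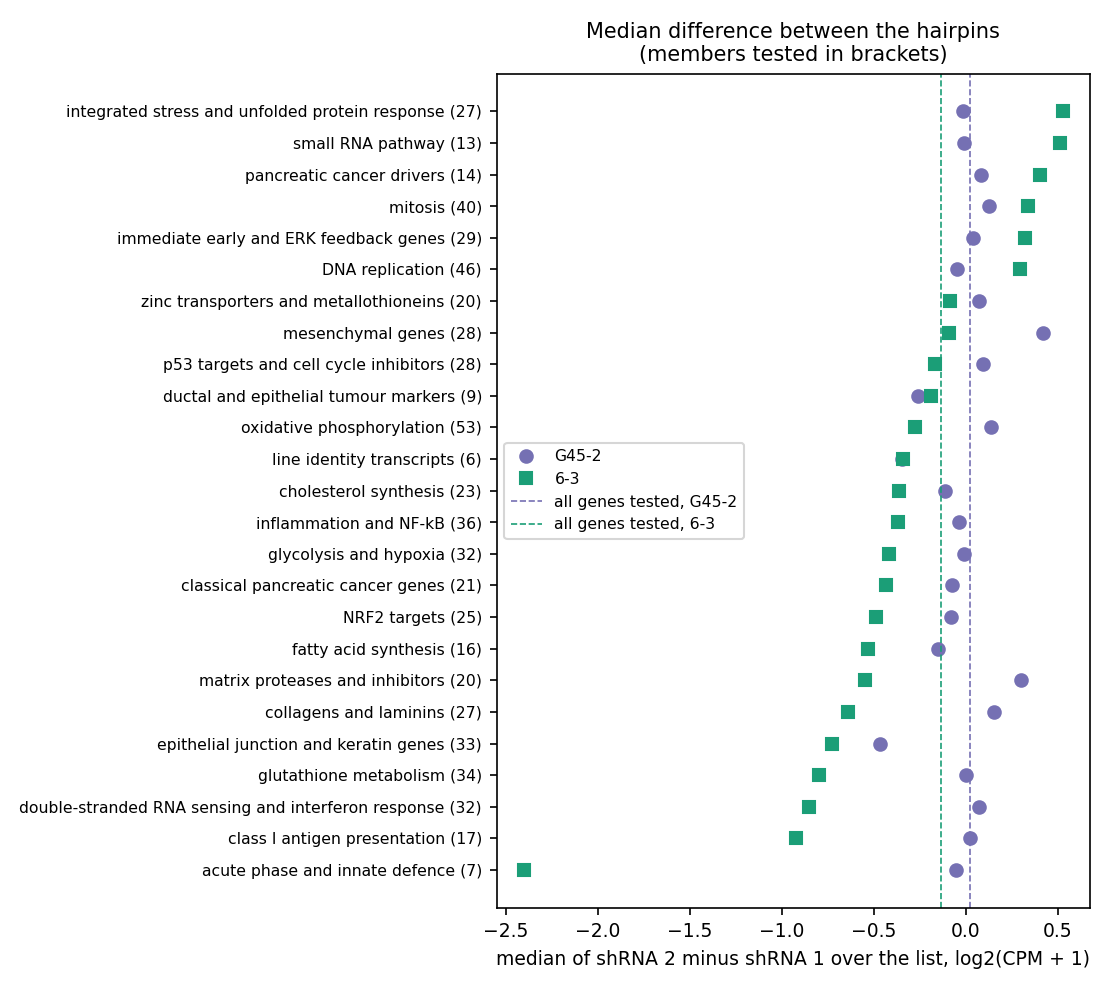
Median difference between shRNA 2 and shRNA 1 on the log2(CPM + 1) scale in G45-2 (circles) and 6-3 (squares) for each list with at least 5 members tested, with the number tested in brackets and the medians of all genes as dashed lines. The G45-2 medians lie between -0.46 and 0.42, while those of 6-3 spread from -2.40 to 0.53.

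Genes that answer to double-stranded RNA and to interferon are of interest in any hairpin comparison, because the hairpins themselves are double-stranded. Of 32 tested, 1 was lower with shRNA 2 in both lines and 0 were higher, against 0.638% and 0.242% of all genes. The medians were 0.07 in G45-2 and -0.85 in 6-3. The exception was Ifih1, the cytosolic sensor MDA5, at 3.29 and 7.66 CPM with shRNA 2 and shRNA 1 of G45-2, against 4.95 CPM in NT, and at 2.33 and 20.03 CPM in 6-3, against 9.20 CPM in NT. Both lines thus had shRNA 2 below NT and shRNA 1 above it. In 6-3, 14 of the 32 were at least 2-fold lower with shRNA 2 and 0 higher, against 16.2% and 4.72% of all genes.

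The genes of class I antigen presentation followed the same split. Of 17 tested, 0 passed 2-fold in the same direction in both lines, against 0.638% lower and 0.242% higher of all genes. The medians were 0.03 in G45-2 and -0.92 in 6-3. In 6-3, 7 of the 17 were at least 2-fold lower with shRNA 2, against 16.2% of all genes. Tapbp, which loads peptides onto class I molecules, was at 144 and 153 CPM with shRNA 2 and shRNA 1 of G45-2, against 178.5 CPM in NT, and at 36.1 and 223 CPM in 6-3, against 205.5 CPM in NT. H2-K1, a class I heavy chain, was at 142.5 and 124 CPM with shRNA 2 and shRNA 1 of G45-2, against 82.8 CPM in NT, and at 56.8 and 225 CPM in 6-3, against 209 CPM in NT. In 6-3 the shRNA 2 library was thus the low one for both, with shRNA 1 near NT. Of 13 genes tested of the small RNA pathway, through which hairpins act, 0 passed 2-fold in both lines, against 0.638% lower and 0.242% higher of all genes. Their medians were -0.01 in G45-2 and 0.51 in 6-3, against 0.02 and -0.13 over all genes. In 6-3, 10 of the 13 were higher with shRNA 2 by any amount (5046 of all 12377 genes), 2 of them past 2-fold, and 1 was at least 2-fold lower. Drosha, the nuclear microRNA processor, was at 186 and 157 CPM with shRNA 2 and shRNA 1 of G45-2, and at 204 and 142 CPM in 6-3, against 118 and 115 CPM in NT.

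For mitotic and inflammatory genes the median difference between the hairpins was small beside that of either hairpin against NT. Of 40 mitotic genes tested, 0 passed 2-fold in the same direction between the hairpins in both lines, against 0.638% lower and 0.242% higher of all genes. Their medians were 0.13 in G45-2 and 0.34 in 6-3, against 0.02 and -0.13 over all genes. Against NT the medians were 1.34 with shRNA 2 and 1.23 with shRNA 1 in G45-2, and 2.18 and 1.85 in 6-3. Kif20a, a kinesin of cytokinesis, was at 392 and 333 CPM with shRNA 2 and shRNA 1 of G45-2, against 74.6 CPM in NT, and at 349 and 203 CPM in 6-3, against 41.1 CPM in NT. Of 36 inflammatory and NF-kB genes tested, 1 was lower with shRNA 2 than with shRNA 1 in both lines, the chemokine gene Cx3cl1. None was higher in both, and the shares of all genes were 0.638% and 0.242%. The medians of the 36 between the hairpins were -0.04 in G45-2 and -0.37 in 6-3. In 6-3, 12 of them were at least 2-fold lower with shRNA 2 and 2 higher, against 16.2% and 4.72% of all genes. The medians of the 36 against NT were -1.24 with shRNA 2 and -1.11 with shRNA 1 in G45-2, and -1.90 and -1.48 in 6-3. Csf3, the granulocyte growth factor, was at 5.03 and 1.97 CPM with shRNA 2 and shRNA 1 of G45-2, against 70.9 CPM in NT, and at 9.74 and 12 CPM in 6-3, against 380.0 CPM in NT. Kif20a and Csf3 were named for a small p against NT, so their place relative to NT was fixed by the choice. The comparisons with NT share the NT libraries, and in 6-3 NT also differs from the knockdowns in library code, so that code and knockdown cannot be told apart there.

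The NT libraries show whether a gene is ordered like Gstt1, with the shRNA 1 culture between shRNA 2 and NT in both lines. This order was found for 17 of the 109 genes of 1 direction (15.6%), for 11 of the 165 of opposite directions (6.67%) and for 16.8% of all genes tested. By line, the share of the 109 was 25.7% in G45-2, against 39.6% of all genes, and 52.3% in 6-3, against 42.2% of all genes. NT lay nearer shRNA 1 than shRNA 2 for 38.5% of the 109 in both lines, against 27.7% of all genes. These shares are descriptions of genes that were picked by the hairpin difference, and they share the hairpin libraries with that choice.

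The 153 genes higher with shRNA 2 in G45-2 and lower in 6-3 included 2 of the 4 fibroblast markers tested, Col1a1 and Pdgfra, and 1 of 28 mesenchymal genes, against 1.24% of all genes. Col1a1, the chain of type I collagen, was at 37.9 and 6.92 CPM with shRNA 2 and shRNA 1 of G45-2, against 89.9 CPM in NT, and at 3.08 and 85.5 CPM in 6-3, against 4.29 CPM in NT. Pdgfra, a growth factor receptor of fibroblasts, was at 8.07 and 1.22 CPM with shRNA 2 and shRNA 1 of G45-2, against 53.1 CPM in NT, and at 1.00 and 29.9 CPM in 6-3, against 1.43 CPM in NT. Col1a1 and Pdgfra were thus low in shRNA 1 of G45-2 and high in shRNA 1 of 6-3, relative to the other libraries of each line. The summed level of the 8 fibroblast markers in the table was 1331 and 761 CPM with shRNA 2 and shRNA 1 of G45-2, against 516 CPM in NT, and 4.16 and 118 CPM in 6-3, against 6.13 CPM in NT. Most of the G45-2 sum was Col3a1 (1236, 729 and 357 CPM), and the defining markers Dcn and Lum were at 0.25 CPM or less in all 6 libraries. In bulk RNA, fewer cells of a type and less RNA per cell cannot be told apart, and the part of other cells in these differences was not tested.

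Among the widest differences of each line were genes under 2-fold in the other. In G45-2 the rule named Prkar1b, a regulatory subunit of protein kinase A, at 31.4 CPM with shRNA 2 and 0.27 CPM with shRNA 1, against 2.65 CPM in NT, and Bgn, the matrix proteoglycan biglycan, at 32.3 and 0.64 CPM, against 2.07 CPM in NT. In both genes shRNA 2 was the high library. In 6-3 it named Serpinb2, an inhibitor of plasminogen activators, at 104.8 CPM with shRNA 2 and 11.2 CPM with shRNA 1, against 0.20 CPM in NT. Dmbt1, a mucosal scavenger receptor, was at 1.5 and 127 CPM with shRNA 2 and shRNA 1 of 6-3, against 18.9 CPM in NT. In G45-2 Dmbt1 was on the same side and just under the limit (-0.974), at 64.8 and 128 CPM, against 0.81 CPM in NT. Atoh8, a transcription factor, was at 1.08 and 126.9 CPM in 6-3, against 0.82 CPM in NT, so that shRNA 1 was the high library of 6-3 for both genes.

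Some transcripts of liver type were highest with shRNA 1 of 6-3 and others in NT of that line. Apob, which builds lipoprotein particles, was at 43.0 and 132.5 CPM with shRNA 2 and shRNA 1 of 6-3, against 484.3 CPM in NT. Lbp, an acute phase protein, was at 0.17 CPM (2 reads) and 19.9 CPM in 6-3, against 146.7 CPM in NT. In G45-2 Apob was at 9.37 and 41.5 CPM with shRNA 2 and shRNA 1, against 22.9 CPM in NT. Lbp was at 0.25 CPM (4 reads) and 1.60 CPM in G45-2, against 32.8 CPM in NT. Apob and Lbp were thus past 2-fold lower with shRNA 2 in both lines, not in 6-3 alone. Apoa1, an apolipoprotein, was at 0.56 and 1.01 CPM with shRNA 2 and shRNA 1 of G45-2, with no reads in NT, and at 0.67 and 34.4 CPM in 6-3, against 0.95 CPM in NT. Cfi, a complement factor made by hepatocytes, was at 0.19 and 0.05 CPM with shRNA 2 and shRNA 1 of G45-2 (3 reads and 1 read), and at 0.08 CPM (1 read) and 74.4 CPM in 6-3, against 4.02 CPM in NT. The 3 hepatocyte markers in the table summed to 0.99 and 1.33 CPM with shRNA 2 and shRNA 1 of G45-2, against 0.23 CPM in NT, and to 0.75 and 40.3 CPM in 6-3, against 1.57 CPM in NT. The 5 macrophage and leukocyte markers summed to 104 CPM with shRNA 2 and 123 CPM with shRNA 1 of 6-3, against 875 CPM in NT, nearly all of it Cd14, and Ptprc, which marks all leukocytes, was at 0.07 to 1.67 CPM in the 6 libraries. The marker sums of 6-3 rest on few genes. Apoa1 made up most of the hepatocyte sum with shRNA 1 and was the only 1 of 10 listed hepatocyte markers to pass the filter. Col1a1 and Pdgfra made up most of the fibroblast sum with shRNA 1. The 2 hairpins of 6-3 therefore differed in these 3 genes, which do not establish a difference in cell types. The part of other cells in the 2001 genes lower with shRNA 2 was not tested.

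Lines 42-3 and 42-2 offered libraries that the choice of genes had not used, although there the hairpins of a line carry different library codes. Line 42-3 came from a lung metastasis and 42-2 from a liver metastasis. Gstt1 was at 0.238 CPM with shRNA 2 and 0.352 CPM with shRNA 1 in 42-3, and at 0.069 and 0.373 CPM in 42-2. The NT libraries of the same line and library code held 38.8 and 37.6 CPM in 42-3, and 0.616 and 2.67 CPM in 42-2. Gstt1 was thus low with both hairpins in each line, so neither line set a partial loss beside a deep one. Of the 109 genes of 1 direction, 21 had the same sign of shRNA 2 minus shRNA 1 in both of these lines. For the 30 higher genes this was 20% (6 genes), against 17.0% of all genes with that sign in both, and for the 79 lower genes 19.0% (15 genes), against 22.6% of all genes. The NT library of the same line and library code was then subtracted from each library. After this the sign was kept in both lines by 9 of the 30 higher genes (30%, against 22.1% of all genes). It was kept by 6 of the 79 lower genes (7.59%, against 24.7% of all genes). The median of the 79 lower genes was then 0.48 in 42-3 and 1.84 in 42-2, on the side opposite to G45-2 and 6-3. Without the subtraction their median was -0.05 in 42-3 and -0.11 in 42-2, against -0.04 and -0.05 over all genes. The subtracted values also hold any difference between the NT libraries of a line, and the part of that difference was not tested. Epcam was at 1.07 CPM with shRNA 2 and 0.04 CPM with shRNA 1 in 42-3, and at 1.17 and 23.1 CPM in 42-2. Gpr124 was at 13.1 and 33.5 CPM with shRNA 2 and shRNA 1 in 42-3, and at 26.8 and 1.72 CPM in 42-2. Each gene had the sign seen in G45-2 and 6-3 in 1 of these lines and the other sign in the second.

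The promoters of the same-direction genes were examined for short motifs, to see what the members share in sequence. The 14 motifs were chosen after the genes were known and searched on both strands. One was the E2 box CACCTG, which reads CAGGTG on the other strand and which Snail and Zeb repressors are known to bind. Growth signals act through AP-1 factors (searched as TGANTCA) and through the wide family of ETS factors (searched as CCGGAAG). The Hippo pathway ends on TEAD factors, for which the letters GGAATG were used. Factors of gut and liver epithelium were represented by GATA (searched as AGATAAG), by CDX in 2 forms (the first searched as TTTATGG and the second form of the same family as TTTATTG), and by GRHL, which keeps epithelial junction genes on (searched as AACCNGTT). NRF2, the factor of the oxidative stress response, was searched as TGACNNNGC. HNF4, a nuclear receptor of liver and gut, had 2 forms, with CAAAGTCCA as the first and the letters CAAAGTTCA for the second of them. A CArG-like box and 2 forms of HNF1 made up the rest. The E2 box is described because, after the shares were seen, its share stood the most percentage points above that of all genes in both the lower and the higher sets. As a ratio, rarer motifs stood further above in the lower set, such as the first CDX form at 5.88%, against 1.51% of all genes. The E2 box was present in the window from 250 bases before to 50 bases after the first listed start site in 19 of the 51 lower genes with a promoter in RefSeq (37.3%) and in 9 of 19 higher genes (47.4%). Among all genes tested the share was 17.1%, among all 32851 promoter windows 20.2%, and among the 153 genes of opposite direction 16.7% (17 of 102). For comparison, TEAD was found in 11.8% of the lower, 26.3% of the higher and 11.9% of all genes tested, and ETS in 7.84%, 5.26% and 18.3%. The box was thus frequent in both the lower and the higher genes, and a match of letters is no evidence of binding. The windows of 2 lower genes and 1 higher gene are shown with the boxes in capitals (RefSeq, GRCm38.p6, 5′ to 3′ in the direction of the gene, all on the + strand). Epcam (chr17:87635729-87636028) has boxes that start 187 and 19 bases before the start site, Vil1 (chr1:74409134-74409433) 1 box at base 27 of the transcript, and Myh10 (chr11:68691665-68691964) boxes 247 and 2 bases before the start:
Epcam: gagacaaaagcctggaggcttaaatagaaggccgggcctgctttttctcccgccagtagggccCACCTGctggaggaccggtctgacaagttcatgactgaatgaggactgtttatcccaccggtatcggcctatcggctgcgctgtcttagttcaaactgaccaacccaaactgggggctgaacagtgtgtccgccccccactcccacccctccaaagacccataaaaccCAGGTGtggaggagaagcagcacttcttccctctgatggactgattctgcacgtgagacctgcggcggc
Vil1: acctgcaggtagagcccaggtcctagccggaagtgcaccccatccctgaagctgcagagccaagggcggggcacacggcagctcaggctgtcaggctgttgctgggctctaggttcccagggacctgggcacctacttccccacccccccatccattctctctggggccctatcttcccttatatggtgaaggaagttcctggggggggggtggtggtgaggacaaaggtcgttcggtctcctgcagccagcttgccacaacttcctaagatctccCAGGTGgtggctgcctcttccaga
Myh10: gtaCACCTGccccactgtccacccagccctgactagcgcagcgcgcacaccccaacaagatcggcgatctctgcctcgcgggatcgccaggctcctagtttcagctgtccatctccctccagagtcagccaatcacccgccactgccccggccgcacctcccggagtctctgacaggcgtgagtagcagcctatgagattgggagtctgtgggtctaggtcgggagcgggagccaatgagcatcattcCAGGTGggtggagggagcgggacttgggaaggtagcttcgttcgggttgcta
Epcam and Vil1 were lower and Myh10 higher with shRNA 2 in both lines, as given above.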

How the data were processed

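RNA-seq had been done on 18 libraries of mouse PDAC metastasis lines, and 6 of them entered the tests: shRNA 2, shRNA 1 and NT in lines G45-2 and 6-3, grouped by the treatment and cell line labels. The authors deposited a table of CPM values per gene, scaled so that libraries share 1 total. The genome build is mm9, per the submitters' processing notes, and no source used here names the aligner or read counter. Total RNA of 1.3 µg per library went into TruSeq preparation, per the labels' protocols. Whole reads were recovered from the CPM steps (100% of values within 0.01 reads of a whole number), and depths and exact 95% counting intervals come from them.

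Differences were taken on log2(CPM + 1), so that the change of low genes is understated, and tested with limma 3.58.1 in R 4.3.3, with trend, cell line and treatment as terms, and Benjamini-Hochberg adjustment at 0.05 over all 12377 genes at 1 CPM or more in at least 2 of the 6 libraries. The pairing comes from the cell line, which the labels name. Alternatives were the pseudocount, the filter, rescaling, no cell line term, all 18 libraries, leaving out each library, the 4 knockdown libraries alone, and edgeR 4.0.16 on the recovered reads. The fit was tested on simulated data.

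The members and lists were chosen with earlier results of these data known. Genes were named by rule: Gstt1 and Gstt3; the 12 genes with the largest smaller-of-2-lines difference each way among those past 2-fold in both lines with a mean of at least 5 CPM in the knockdown libraries; up to 3 members of each list past 2-fold in both lines, otherwise the 2 of smallest p; 6 genes each way of smallest p for each hairpin against NT; and the 4 largest differences each way in each line with at least 20 CPM in 1 library. Not every gene so named is described, and 1 of the 12 higher genes is not reported here. Figures were drawn with matplotlib 3.10.9.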

Additional observations from a re-analysis of the deposited data

Results flagged for a closer look

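Among the genes named for a wide difference in 1 line, 4 had the opposite sign past 2-fold in the other line, and the difference between the lines was not tested, since each line has 1 library per hairpin. Values of shRNA 2 minus shRNA 1 are on the log2(CPM + 1) scale. Emilin2, a matrix glycoprotein, had 4.17 in G45-2 and -1.42 in 6-3, at 21.9 CPM with shRNA 2 and 0.27 CPM with shRNA 1 in G45-2, and no reads with shRNA 2 and 1.67 CPM with shRNA 1 in 6-3. Aqp8, a water channel, had -2.31 in G45-2 and 1.07 in 6-3, at 3.54 and 21.5 CPM with shRNA 2 and shRNA 1 in G45-2 and 60.0 and 28.1 CPM in 6-3. Ceacam1, a cell adhesion molecule, had -1.98 in G45-2 and 3.10 in 6-3, at 0.99 and 6.86 CPM with shRNA 2 and shRNA 1 in G45-2 and 60.8 and 6.2 CPM in 6-3. Atp2a3, a calcium pump of the endoplasmic reticulum, had 1.10 in G45-2 and -5.50 in 6-3, at 31.7 and 14.3 CPM with shRNA 2 and shRNA 1 in G45-2 and 6.41 and 334 CPM in 6-3.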

How the results depend on the processing

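The count of genes called stayed at 0 in each of the 3 contrasts under every alternative run, the fit without the cell line block (no replicate block) included, which had 58 genes at an unadjusted p under 0.05 between the hairpins. Leaving out 1 library also gave 0 to 0, the lone sample being assumed to vary like the rest. Genes at an unadjusted p under 0.05 then numbered 73 (without shRNA 2 of 6-3) to 1150 (without shRNA 2 of G45-2) between the hairpins, 617 (without shRNA 2 of 6-3) to 1753 (without shRNA 2 of G45-2) for shRNA 2 against NT, and 582 (without shRNA 1 of 6-3) to 1475 (without NT of 6-3) for shRNA 1 against NT. The Gstt1 difference ranged from -3.90 to -2.13 without 1 library and was -1.19 over all 18 libraries. The 109 genes past the fold limit in the same direction became 68 with a pseudocount of 2, 65 with ratios of recovered reads of at least 20, 353 at 1.5-fold and 22 at 3-fold, and 165 genes of opposite direction became 115 after quantile normalization. These counts, the correlation between the lines (-0.07 to -0.04 over its alternatives) and the values of 42-3 and 42-2 have no value without a library, since each hairpin has 1 library per line. Over all 18 libraries the sign reversed for Ccbe1 (-0.038), Ces2g (0.19), Kif20a (-0.10), Cx3cl1 (0.11), Col1a1 (0.61), Atoh8 (0.24) and Atp2a3 (0.56). Without 1 library the mean difference of genes that the lines do not share changed sign: Col1a1 -4.62 to 2.51, Pdgfra -4.52 to 2.60, Prkar1b -0.78 to 5.24, Bgn -0.23 to 3.95, Emilin2 -1.13 to 3.89, Aqp8 -2.21 to 0.97, Serpinb2 -1.07 to 4.50, Ceacam1 -1.58 to 2.71, Atoh8 -6.24 to 0.13 and Atp2a3 -5.24 to 0.84. The values of Col1a1 (2.51, 0.41), Pdgfra (2.60), Prkar1b (-0.78), Bgn (-0.23), Emilin2 (-1.13, -0.30), Aqp8 (0.32, 0.97), Serpinb2 (-1.07), Ceacam1 (-1.10, -1.58), Atoh8 (0.13) and Atp2a3 (0.84) are those of the opposite sign. The cause was not tested.

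Depth limits genes of few reads: in 6-3 shRNA 2, the shallowest library, Gstt1, Epcam and Tmigd1 rest on 3 reads or fewer.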
